A study of Saccharomyces cerevisiae with 5 samples.

Results

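The genes described here encode the proteins of the mitochondrial ribosome of budding yeast, Saccharomyces cerevisiae. They were chosen by gene symbol in the platform annotation. Symbols made of MRPL, MRPS, RSM or MRP followed by a number were taken, together with RML2, YML6, IMG1 and IMG2. This gave 71 of the 5583 annotated genes, 42 of the large subunit, 28 of the small subunit and MRP8. MRP8 carries a ribosomal name but is not known as a ribosomal protein, so 70 of the 71 genes answer the description. The first array platform holds 89 spots for all 71 genes, and the second holds 138 spots for 69, lacking MRP10 and MRPL15.

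The mitochondrial ribosome translates the few messages of the mitochondrial genome, most of which encode membrane subunits of the respiratory chain and the ATP synthase. Nearly all of its proteins are encoded in the nucleus. Their messages are therefore exported like any other nuclear mRNA, translated on cytosolic ribosomes, and the products are imported into mitochondria. Yra1 is an RNA-binding adaptor that links nuclear mRNA to the export receptor Mex67.

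Each of 5 spotted 2-channel arrays compared cDNA from RNA co-precipitated with zzYra1, a tagged form of Yra1 (IP RNA), with cDNA from total RNA. By the labels, channel 1 held the IP RNA on arrays 1 and 3, and channel 2 held it on arrays 2, 4 and 5. Arrays 1 and 2 carry the same labels with exchanged channels, and only they share a number in their titles and the first platform. What that number stands for is not stated. Both arrays could hold the same RNA, so they were averaged as replicate 1, while arrays 3, 4 and 5 are replicates 2, 3 and 4. The labels used here name no strain, medium or culture, and no mock precipitation was analysed. The spread behind each p-value is that between arrays and may be technical. The question was which transcripts differed between the IP and total RNA.

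All values are log2 ratios of the 2 channels relative to the median spot of their own array, so a member at 0 behaves like the typical spot. The deposited ratios run in an unstated direction. Above and below 0 describe the deposited ratio, and neither means enriched in or depleted from the IP. For the described genes and group medians, the value with the arrays carrying the IP RNA in channel 2 turned is given too; turned, above and below trade places on arrays 2, 4 and 5. Before centring, the median log10 ratios of arrays 1 to 5 were -1.39, 1.34, -0.85, 0.30 and -0.14. Array 5 thus differed in sign from arrays 2 and 4, which also held the IP RNA in channel 2. The SD of single spots was 0.961 on array 1, 0.848 on array 2, 1.15 on arrays 3 and 4 and 2.30 on array 5, so equal ratios are less extreme on array 5. Percentiles among all measured genes of an array are therefore given for the main genes.

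Agreement between both spots of a gene on the same array differed by platform. On arrays 1 and 2 such spots lie far apart in file order, with a median distance over all genes of 1755 positions on both arrays. On arrays 3, 4 and 5 all members' pairs are adjacent. Among members with 2 measured spots, Pearson's r between the spots was -0.10 for the 18 genes of array 1 and 0.35 for the 12 of array 2. It was 0.83, 0.79 and 0.84 on arrays 3, 4 and 5, over 17, 20 and 21 genes. All genes gave 0.12, 0.31, 0.79, 0.86 and 0.92 in the same order. On array 1 the members' spots differed by a median of 1.33 on the log2 scale, more than the SD of single spots. On array 1, 53.2% of the pairs over all genes had the same sign. Spots of a gene on arrays 1 and 2 thus repeat each other less than those on arrays 3 to 5, which are also neighbours. Whether the annotation of the first platform assigns its spots to the right genes was not tested, and every value of arrays 1 and 2 rests on it.

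**Figure D1:**
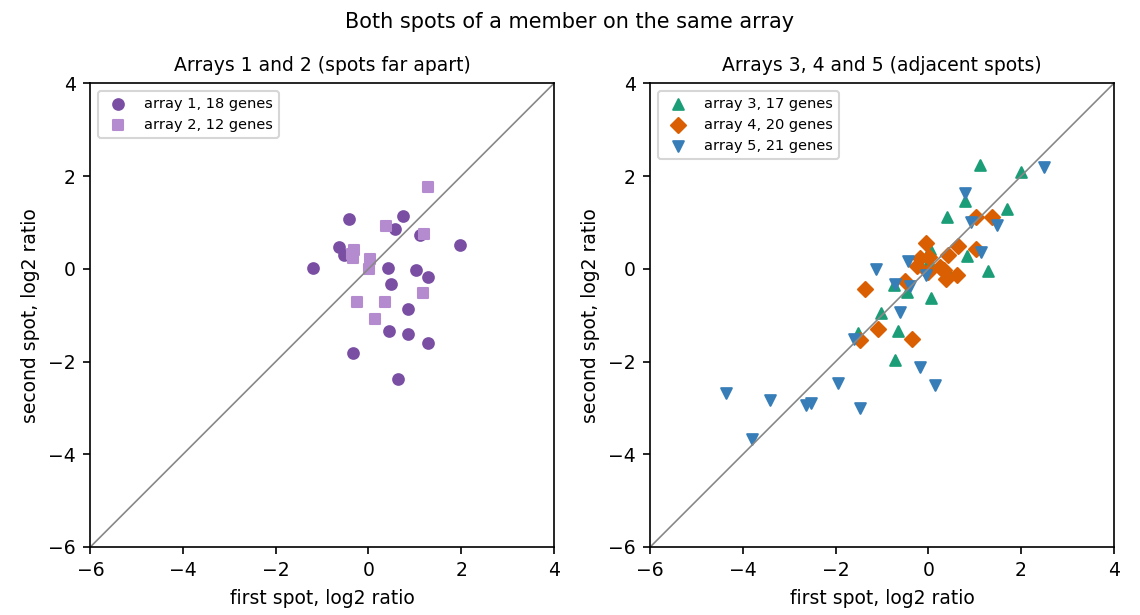
Log2 ratio of the first spot (x axis) against the second spot (y axis) of each member with 2 measured spots on the same array, with arrays 1 and 2 on the left and arrays 3, 4 and 5 on the right. The line marks equal values. The points of arrays 3, 4 and 5 follow it, with r between 0.79 and 0.84, while those of array 1 do not (r = -0.10).

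Many members had no value on some arrays. Arrays 1 to 5 gave a value for 70, 45, 28, 37 and 22 members. As shares of the members spotted these are 98.6%, 63.4%, 40.6%, 53.6% and 31.9%, beside 99.2%, 68.9%, 48.8%, 57.7% and 31.0% of all genes. Cytosolic ribosomal protein genes, which belong to the most abundant messages of growing yeast, had a value more often on the second platform, in 68.4%, 73.7% and 57.1% of the genes spotted on arrays 3, 4 and 5. No label used here says why a spot lacks a value. Only MRPL22 was measured on all 5 arrays, 6 members had a value in all 4 replicates, 28 in at least 3 and 53 in at least 2.

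As a group the mitochondrial ribosomal protein genes lay close to the median spot on 4 of 5 arrays. Their median log2 ratios on arrays 1 to 4 were 0.21, 0.0050, 0.076 and 0.081, beside -0.010, 0.0026, -0.044 and -0.031 for all genes. On array 5 it was -0.96, beside -0.098 for all genes, and 17 of 22 members lay below 0, beside 890 of all 1717 measured genes. The mean of the 4 replicate medians was -0.18 ± 0.52 (SD, n = 4), less than its spread. Without replicate 4, which is array 5, it was 0.078 ± 0.0026 (SD, n = 3), and with the channel 2 arrays turned it was 0.29 ± 0.46 (SD, n = 4).

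Ratios beyond 1 on the log2 scale, that is beyond 2-fold, were read against their share among all genes. Above 1 stood 8 of 70 members on array 1 (8.92% of all genes), 1 of 45 on array 2 (8.53%), 5 of 28 on array 3 (13.0%), 3 of 37 on array 4 (14.0%) and 3 of 22 on array 5 (29.8%). Below -1 stood 7 members on array 1 (14.4% of all genes) and 5 on array 2 (6.68%). On the second platform these were 5 of array 3 (13.6%), 7 of array 4 (12.5%) and 11 of array 5 (34.8%). As shares of the measured members, those above 1 were 11.4%, 2.22%, 17.9%, 8.11% and 13.6% on arrays 1 to 5. Those below -1 made up 11.1%, 17.9% and 18.9% on arrays 2 to 4, and 11 of 22 on array 5. The share below -1 was larger than among all genes on arrays 2 to 5 and smaller on array 1, and these differences were not tested. The large subunit had medians of 0.28, 0.068, 0.060, 0.032 and -0.98 on arrays 1 to 5, and the small subunit 0.17, -0.070, 0.092, 0.14 and -0.83.

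**Figure D2:**
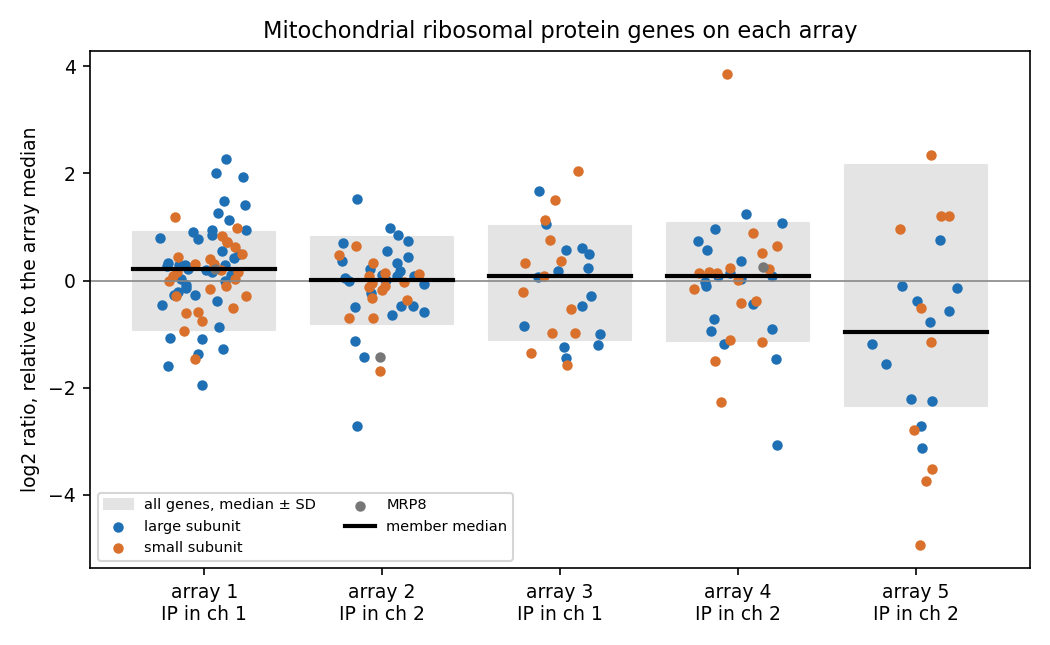
Log2 ratio of every measured member on each array (y axis, relative to the array median), by array and channel of the IP RNA (x axis). Points are genes coloured by subunit, black bars their median, and grey boxes the median ± SD of all genes. The black bar sits between 0.0050 and 0.21 on arrays 1 to 4 and at -0.96 on array 5, inside the grey box of that array.

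The low values on array 5 lay among low spots. On this array the running median over 81 measured spots in file order took up 57.7% of the variance of all spots, against 3.74% to 26.1% on the other arrays. Around the members' spots that local median was itself low, at a median of -1.02, and it lay below 0 for 17 of the 22 members. The same count over all genes is not given here. Of 8 members below -2 on array 5, 7 lay among spots whose local median was below -2 too. The local median includes the gene's own spots, and this count over all genes is not given here either. MRPL9 had -2.71 among neighbours at -2.90, RSM26 -2.79 among -2.99, MRPL24 -3.12 among -2.81 and MRP13 -3.51 among -3.15. Each of these 4 genes lay within 0.37 of its neighbours in file order. Whether file order follows the slide is not stated. With the local median removed, the members' median on array 5 was -0.073, beside -0.10 for all genes. Then 12 of 22 members lay below 0, beside 933 of all 1717 measured genes.

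Only 2 of the 8 low members stayed more than 1 below their neighbours. They were MRPS12, the counterpart of bacterial S12 at the decoding centre (-4.93 among -2.47, a single spot), and RSM19, the counterpart of bacterial S19 (-3.74 among -1.52). By their systematic names, YNR036C and YNR037C, these genes are neighbours on their chromosome. MRP1 stood out in the other direction, at 1.21 among neighbours at -1.16. MRPS18 also lay above its neighbours, at 2.35 among 0.82, and MRPL44 lay below them, at 0.75 among 2.25. Spot brightness, which was inferred from the ratios and not measured, moved with the ratio on array 5 as well. Among recovered spots Spearman's rho between ratio and inferred brightness was 0.59 over all genes. The members' inferred numerators and denominators differed from the median recovered spot of all genes by -1.43 and -0.69 on the log2 scale. On this array 100% of the members' spots were recovered, beside 87.8% of those of all genes. With the brightness trend removed, the members' median on array 5 was 0.26.

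**Figure D3:**
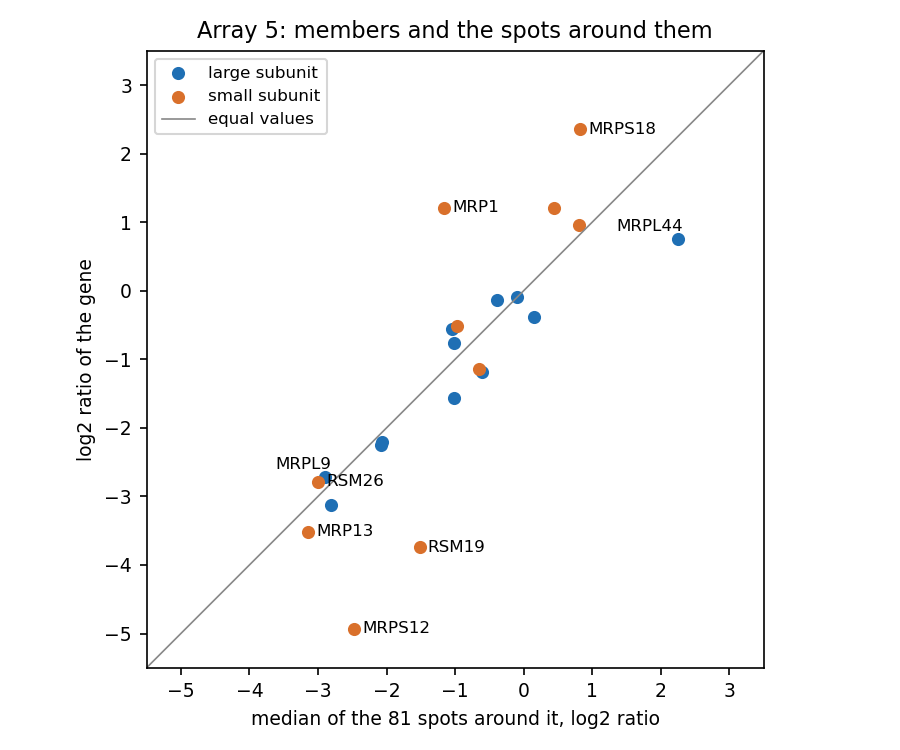
Log2 ratio of each of the 22 members measured on array 5 (y axis) against the running median of the 81 measured spots around it in file order (x axis, log2 ratio), coloured by subunit. The line marks equal values. Most members lie near it, including MRPL9 and RSM26. MRPS12, RSM19 and MRPL44 lie below it, and MRP1 and MRPS18 above it.

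No member passed the test. On simulated data the wider fit recovered 0% of genes shifted by 1 on the log2 scale, 0.5% at 2 and 95% at 4. The fit of genes in all 4 replicates recovered 0%, 32.5% and 96.5%. Thus 0 calls does not show that no member differed. Limma's fit of the 703 genes with a value in all 4 replicates held 6 members and called 0 genes (0%) at an adjusted p under 0.05. At an unadjusted p under 0.05 it held 55 genes (7.82%) and 0 of the 6 members. The wider fit of the 4483 genes with a value in at least 2 replicates held 53 members and also called 0 genes (0%). There, 170 genes (3.79%) had an unadjusted p under 0.05, among them 4 of the 53 members (7.55%): MRPL7, MRP2, MRPL17 and MRPS18. The adjusted p of each was 0.90 (limma, Benjamini-Hochberg). With limma's trend and robust options, 0 of the 4483 genes reached an unadjusted p under 0.05. The mean ratio lay above 0 in 23 of the 53 members, or in 12 of 30 of the large and 11 of 22 of the small subunit, beside 45.1% of all genes in this fit. Turned, it lay above 0 in 31 members, beside 49.2% of all genes. The turned fit had 2 of the 53 members and 104 of the 4483 genes at an unadjusted p under 0.05, and called 0 genes (limma).

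MRPL7, the large-subunit counterpart of bacterial L5, had the highest mean among members measured in 3 replicates. Its log2 ratios were 2.27, 1.68 and 1.24 on arrays 1, 3 and 4, the first at percentile 99.9 and the last at 89.1. Its mean was 1.73 ± 0.52 (SD, n = 3), with a standard error of 0.44 and an unadjusted p of 0.0078 in limma's fit. It lay above the array median wherever it was measured, and both of its spots did so on arrays 3 (1.11 and 2.25) and 4 (1.37 and 1.11). With the channel 2 arrays turned its mean was 0.90, and with the brightness trend removed it was 0.99, from the 1 replicate then left.

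MRPL17 is a large-subunit protein with no bacterial counterpart. It had 0.78, -2.71, -3.07 and -1.56 on arrays 1, 2, 4 and 5. It was the lowest member on arrays 2 and 4, at percentiles 0.31 and 0.94, yet lay in the upper part of array 1, at percentile 85.4. All 3 arrays with low values had the IP RNA in channel 2 and array 1 had it in channel 1. Its mean was -1.87 ± 1.09 (SD, n = 3; unadjusted p = 0.014 in limma's fit), and 2.13 with the channel 2 arrays turned (unadjusted p = 0.0060, adjusted p = 0.94 in limma's fit). On arrays 1, 2 and 4 the value came from 1 spot each. Replicate 1 of MRPL17 averages 0.78 and -2.71. With replicate 1 from array 1 alone its mean was -1.29 (unadjusted p = 0.13 in limma's fit). From array 2 alone it was -2.45 (unadjusted p = 0.0030).

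MRPL22, the counterpart of bacterial L22 at the exit tunnel, had 1.41, -1.44, -0.29, 0.13 and -0.56 on arrays 1 to 5, for a mean of -0.18 ± 0.31 (SD, n = 4; adjusted p = 0.90 in the fit of 703 genes), or 0.39 turned. Its replicate 1 averages values at percentiles 97.3 and 2.73 of arrays 1 and 2, a gap that the SD between replicates leaves out. MRPL1, the counterpart of bacterial L1, was the lowest member on array 1 at -1.95 and had 0.73 on array 2, -0.48 on array 3 and 0.08 on array 4. Its mean was -0.34, or -0.63 turned. MRPL50, the counterpart of bacterial L9, had -0.21, 0.17 and 0.73 on arrays 1, 3 and 4, and its mean of 0.23 became -0.26 turned. MRPL31, a large-subunit protein of fungi, had the highest deposited ratio of the members on array 2, 1.53, and -0.08 on array 1, with no other value. Its mean of 0.72 became -0.80 turned.

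MRPS18, the small-subunit counterpart of bacterial S11, lay above 0 on every array that measured it. It had 0.83, 0.47, 2.04 and 2.35 on arrays 1, 2, 3 and 5, at percentiles 86.6, 76.0, 96.8 and 87.5. It was the highest member on arrays 3 and 5, and both spots were high on array 3 (2.00 and 2.09) and array 5 (2.50 and 2.21). Its mean was 1.68 ± 0.91 (SD, n = 3; unadjusted p = 0.016 in limma's fit). Of the arrays involved, 2 carried the IP RNA in each channel, and with the channel 2 arrays turned the mean was -0.04. With the brightness trend removed it was 0.60 over the 2 replicates left (unadjusted p = 0.27 in limma's fit).

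MRP2, the counterpart of bacterial S14, had a narrow range. It had -1.70 on array 2, -1.57 on array 3 and -1.14 on array 4, at percentiles 1.85, 5.06 and 9.61, each from 1 spot. Its mean was -1.47 ± 0.29 (SD, n = 3; unadjusted p = 0.012 in limma's fit), and 0.42 with the channel 2 arrays turned. It was the only member measured on other arrays but not on array 1.

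RSM19 and MRP13, a small-subunit protein without a bacterial counterpart, lay below 0 on every array that measured them. RSM19 had -0.28, -0.33, -1.11 and -3.74 on arrays 1, 2, 4 and 5, and MRP13 had -0.59, -0.19, -0.54 and -3.51 on arrays 1, 2, 3 and 5. Both means, -1.72 ± 1.79 and -1.48 ± 1.76 (SD, n = 3), leaned on array 5, without which they were -0.71 and -0.46. With the position trend removed they were -0.84 and -0.36, and with the brightness trend removed -1.04 and -0.67. Turned, they were 1.63 and 0.92. Of the arrays left, RSM19 departed most from the median on array 4, at percentile 10.2.

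MRP1 and MRP21 lay above 0 on all 4 arrays that measured each. MRP1 and RSM26 are small-subunit proteins related in sequence to superoxide dismutases, and MRP21 is the counterpart of bacterial S21. MRP1 had 0.20, 0.09, 0.16 and 1.21 on arrays 1, 3, 4 and 5, a mean of 0.42 ± 0.53 (SD, n = 4; adjusted p = 0.76 in the fit of 703 genes), or 0.15 without array 5. MRP21 had 0.17, 0.14, 0.33 and 0.65 on arrays 1 to 4, a mean of 0.38 ± 0.25 (SD, n = 3). Turned, the means were -0.27 and -0.10. Over the 19 members measured on at least 4 arrays, 3 lay above 0 on every array (MRP1, MRP21 and MRPS18) beside 5.54% of all such genes. MRP13 and RSM19 made 2 below 0, beside 6.33%, and 14 had mixed signs. These counts hold for the deposited direction only. Turned, each of the genes just named had mixed signs. MRPL17, MRPL3 and RSM26 then lay above 0 on every array that measured them, and MRPL1 and MRPL44 below 0. The turned shares of all genes are not given here.

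The small-subunit genes measured in all 4 replicates mostly changed sign between arrays. MRPS12 had -1.47, 1.50, -0.16 and -4.93 on arrays 1, 3, 4 and 5, a mean of -1.27 ± 2.73 (SD, n = 4; adjusted p = 0.67 in the fit of 703 genes). Without array 5 its mean was -0.04, and turned it was 1.28. RSM26 had 0.45, 1.13, -2.27 and -2.79 on the same arrays, a mean of -0.87 ± 1.95 (SD, n = 4; adjusted p = 0.71). Its values were above 0 where channel 1 held the IP RNA and below 0 where channel 2 did, and turned its mean was 1.66 (unadjusted p = 0.012, adjusted p = 0.94 in limma's wider fit). With the position trend removed, its mean as deposited was -0.21. The values of RSM26 on arrays 1 and 4 came from 1 spot each.

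RSM10, the counterpart of bacterial S10, had 0.31, -0.99, -1.50 and 0.97 on arrays 1, 3, 4 and 5. Its mean was -0.30 ± 1.14 (SD, n = 4; adjusted p = 0.85 in the fit of 703 genes), or -0.036 turned. MRPS17, the counterpart of bacterial S17, had 0.08, 0.76, 0.14 and -0.51 on these arrays, a mean of 0.12 ± 0.52 (SD, n = 4; adjusted p = 0.94), or 0.30 turned. RSM27, a small-subunit protein without a bacterial counterpart, gave the highest single value of any member, 3.85 on array 4 at percentile 99.7. It came from 1 spot, and the other value of RSM27 was 0.03 on array 1. Its mean of 1.94 became -1.91 turned.

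**Figure D4:**
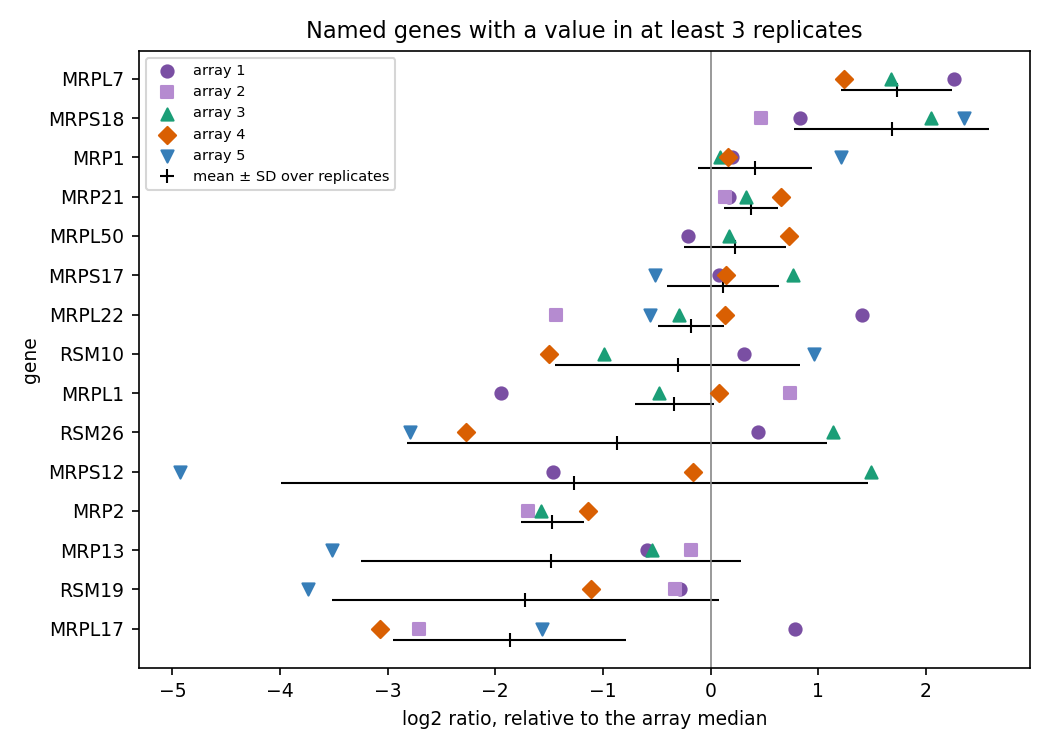
Log2 ratio (x axis, relative to the array median) of the 15 described members with a value in at least 3 replicates, ordered by mean (y axis). Symbols are arrays, and black ticks with bars are the mean ± SD over replicates. All symbols of MRPL7 and MRPS18 lie above 0 and all of MRP2, MRP13 and RSM19 below it, while arrays 1 and 2 lie on opposite sides of 0 for MRPL22, MRPL1 and MRPL17.

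The remaining 54 members are given by their ranges. The 13 with 3 replicates had means from -1.01 to 0.22 with a median of -0.15. The 24 with 2 replicates ran from -1.41 to 0.61 with a median of 0.0034. The 17 with 1 replicate ran from -0.70 to 2.00, with a median of 0.22. The smallest unadjusted p of the first 2 groups was 0.14 (limma). Over the 28 members in at least 3 replicates the SD between replicates had a median of 0.70, beside 0.90 over all such genes.

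Members shared little of their ratios between arrays. Across members, which are not independent replicates, the 10 array pairs had a median Pearson's r of 0.12, from -0.29 to 0.58, over 11 to 44 shared genes. For all genes the median was 0.048. Turned, the members' range was -0.58 to 0.55 with a median of 0.089, and the all-gene median was -0.015. Arrays 1 and 2 gave r = -0.29 over 44 members, and r = 0.29 turned, beside 0.0077 as deposited over all 3814 shared genes. The sign was the same on both in 18 of these members (40.9%), beside 50.2% of all shared genes. Arrays 2 and 3 gave r = 0.58 over 14 members, or -0.58 turned, beside 0.023 as deposited over all genes. Arrays 3 and 5, the highest pair over all genes at 0.23, gave -0.079 over 12 members. Arrays 2 and 4, both with the IP RNA in channel 2, gave r = 0.55 over 20 members either way, beside 0.12 over all genes. Spearman's rho of the latter pair, which holds MRPL17 with its extreme value on both arrays, was 0.21.

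Genes that work with the mitochondrial ribosome gave 0 calls in limma's wider fit, as all genes did. Of the mitochondrial translation factors, 10 of 12 were tested and 1 had an unadjusted p under 0.05, MRF1, the release factor that ends mitochondrial translation (-1.21 ± 0.80, SD, n = 3; unadjusted p = 0.047). MRF1 had -0.59, -0.04, -1.46 and -1.86 on arrays 1 to 4, all below 0 as deposited, and a turned mean of 0.041. The highest of this list as deposited was GUF1, a translational GTPase, at 0.39 ± 1.46 (SD, n = 3), or -1.34 turned (unadjusted p = 0.019 in limma's fit). Of the translational activators of single mitochondrial messages, 14 of 16 were tested and 1 had an unadjusted p under 0.05, SOV1 (-2.54 ± 2.30, SD, n = 3; unadjusted p = 0.028), with -2.15, -0.47 and -5.01 on arrays 1, 3 and 5, and a turned mean of 0.80. AEP1 was the highest of that list as deposited, at 0.78 ± 1.28 (SD, n = 3), or -0.95 turned.

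None of the 12 tested mitochondrial aminoacyl-tRNA synthetase genes had an unadjusted p under 0.05 (limma). They ranged, among genes in at least 3 replicates, from MSM1, for methionine (-0.39 ± 0.75, SD, n = 3), to MSK1, for lysine (0.25 ± 0.65, SD, n = 3). The same count was 0 of 5 for ribosome assembly and membrane anchoring, from MRM2, an rRNA methyltransferase (-0.56 ± 0.29, SD, n = 3), to MRH4, an RNA helicase (0.92 ± 1.13, SD, n = 3). It was 0 of 7 for mitochondrial transcription and RNA turnover, from the mitochondrial RNA polymerase RPO41 (-0.89 ± 0.78, SD, n = 4) to RMD9 (0.0091 ± 1.31, SD, n = 3). Mitochondrial ribosomal proteins under other names gave 0 of 7, from NAM9, the counterpart of bacterial S4 (-0.89 ± 0.39, SD, n = 3), to MHR1 (0.13 ± 1.46, SD, n = 4). The order within these lists rests on the deposited direction. Turned, the means were -0.098 for MSM1, 0.11 for MSK1, 0.12 for MRM2 and -0.59 for MRH4. They were 0.86 for RPO41, 1.00 for RMD9, -0.69 for NAM9 and 0.27 for MHR1.

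The cytosolic ribosomal protein genes, the nearest group by function, had higher deposited medians on the second platform. These were 0.59, 0.73 and 1.59 on arrays 3, 4 and 5, beside 0.076, 0.081 and -0.96 for the mitochondrial ribosomal protein genes. With the position trend removed, array 5 gave 0.73 and -0.073. Turned, the medians on arrays 4 and 5 were -0.73 and -1.59 for the cytosolic genes and -0.081 and 0.96 for the mitochondrial ribosomal protein genes, so the order reversed there. On arrays 1 and 2 the cytosolic genes had 0.049 and 0.12. Nuclear-encoded subunits of oxidative phosphorylation, which work beside the products of the mitochondrial ribosome, had 0.042, 0.060, 0.19, 0.18 and 0.016 on arrays 1 to 5, with -0.060, -0.18 and -0.016 on arrays 2, 4 and 5 turned. These differences between groups were not tested. Among recovered spots of arrays 3, 4 and 5 the inferred numerators of the cytosolic genes exceeded the median recovered spot of all genes. The excess was 1.98, 0.66 and 2.41 on the log2 scale. The inferred numerators of the mitochondrial ribosomal protein genes differed from that median by 0.66, -0.29 and -1.43. On array 5, 75.3% of the cytosolic genes' spots were recovered, beside 100% of the members' spots. On array 3 only 14 of the members' 45 spots were recovered. The part of brightness in the difference between the groups was not tested.

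**Figure D5:**
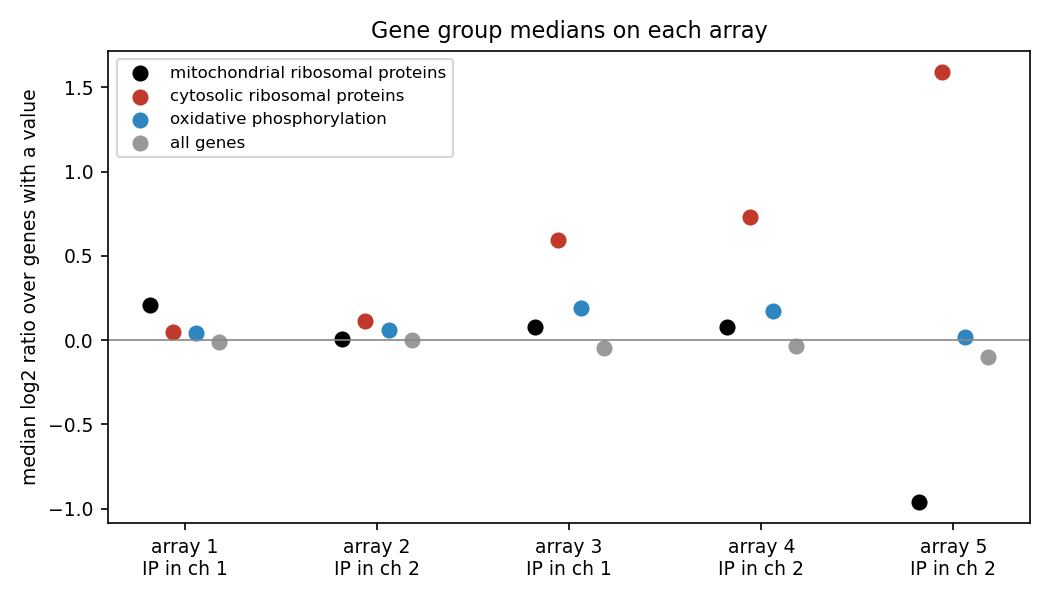
Median log2 ratio over the measured genes of each group (y axis) on each array (x axis), with the channel of the IP RNA. Points are medians and have no error bar. The mitochondrial ribosomal protein genes stay within 0.21 of 0 on arrays 1 to 4 and stand at -0.96 on array 5, where the cytosolic ribosomal protein genes stand at 1.59.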

How the data were processed

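The deposited values are log10 ratios of both channels of each spot. The authors' image processing, normalization and filters are not given in the sources used here, and scale and direction were read from the values, with direction unsettled. Array 1 held values for 7591 spots, array 2 for 4931, array 3 for 4884, array 4 for 6143 and array 5 for 3722; the number of arrays limits the precision. Deposited values were converted to log2, centred on each array's median and averaged over the spots of a gene. Symbols come from GEO's platform annotation, updated by gene identifier through RefSeq assembly R64, which held 5578 of 5583 and 5534 of 5539 genes. No spot named several genes, and 985 and 1662 spots were unnamed here.

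Genes were tested against 0 with lmFit and eBayes (limma 3.58.1, R 4.3.3), tested on simulated data, with Benjamini-Hochberg adjustment over all genes fitted and a threshold of 0.05. Brightness came from spots whose ratio equals, to its 9 decimals, a simplest fraction with terms up to 65535 and their product below 100000000 (recovered spots). These terms are inferred and not measured, and the limits leave out spots with larger terms. The brightness trend was removed by lowess (statsmodels 0.14.6), and the position trend by a running median over 81 spots.

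Members and gene lists were chosen with earlier results of these data known. The members described are all those in 4 replicates, and the 4 highest and 4 lowest means among those in 3. They also include the extremes of each array and those with 1 sign on at least 4 arrays. Means, extremes and signs were taken in the deposited direction. For each list of the mitochondrial translation system the highest and lowest gene in at least 3 replicates is given. Alternatives changed the replicate unit, direction, scale, centring, spot averaging, platform, membership, variance prior and minimum number of replicates, removed the 2 trends, and left out replicates or arrays.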

Additional observations from a re-analysis of the deposited data

Results flagged for a closer look

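Of 7 sets of 4 replicate values examined with Dixon's test at 95%, 2 held a replicate standing apart, where chance flags about 1 in 20. Replicate 4, which is array 5, stood apart in MRP1 (1.21) and in the median of the mitochondrial ribosomal protein genes (-0.96). Array 5 has the widest spread of the arrays, and the 7 sets share the same arrays. The rate of 1 in 20 holds for independent sets of equal spread, so 2 of 7 cannot be judged against it.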

How the results depend on the processing

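The count of members called was 0 in both fits under every alternative run, which says nothing about stability. In simulated data the wider fit recovered 0.5% of genes shifted by 2 on the log2 scale, and the fit of 703 genes 32.5%. Each simulation shifted 200 genes whatever its size, so these recoveries are not comparable. In the wider fit the members at an unadjusted p under 0.05 ranged from 0 (trend and robust options) to 6 (arrays scaled to the same spread), beside 0 and 259 of all genes. The mean of the members' medians moved by less than its SD between replicates under every alternative. That SD, 0.52, rests on replicate 4, without which it was 0.0026, so the comparison does not show stability. The mean of the medians ran from -0.29 (mean of the members in place of their median) to 0.29 (channel 2 arrays turned). It was 0.094 with the brightness trend removed and -0.022 with the position trend removed. It was -0.21 with all known mitochondrial ribosomal proteins, and from -0.27 to 0.078 with each replicate left out.

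Turning the channel 2 arrays changed the sign of 13 described members. The means were then -0.27 for MRP1, 0.39 for MRPL22, 1.28 for MRPS12, 1.66 for RSM26, -0.26 for MRPL50, -0.10 for MRP21, -0.044 for MRPS18, 2.13 for MRPL17, 1.63 for RSM19, 0.92 for MRP13, 0.42 for MRP2, -1.91 for RSM27 and -0.80 for MRPL31. MRPL22 also changed sign with replicate 1 from array 1 alone (0.17), with the position trend removed (0.17) and with the brightness trend removed (0.64). RSM10 did so with the brightness trend removed (0.0079), and MRPL1 with replicate 1 from array 2 alone (0.11). With each replicate left out, MRPS17 ranged from -0.10 to 0.33, RSM10 from -0.73 to 0.10 and MRPL50 from -0.021 to 0.45. Removing the brightness trend left 1 replicate of MRPL7 (0.99), MRPL50 (0.88) and RSM27 (-0.056), with no test. The cause of these changes was not tested. Each array compares both RNAs on itself, so every ratio is already a within-array pair and the test against 0 uses that pairing. The labels form a single group. Members without a value on an array rest on the other arrays, for reasons the labels do not give. The 18 members with a value in 1 replicate could not be tested.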
